A study of Homo sapiens with 6 samples.

Results

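DEV cells that had been grown for 5 days with monocytes were compared with DEV cells grown alone. DEV is an established cell line and was derived from nodular lymphocyte-predominant Hodgkin lymphoma (NLPHL), a B cell lymphoma whose tumour cells lie scattered among many blood cells. The comparison took 4 of the 6 arrays of the series, 2 labelled as coculture with monocytes and 2 as monoculture, and all 32321 probe sets of the deposited values. The lymphoma cells and the CD14-positive monocytes, which came from the blood of healthy donors, were mixed at 1:10, and at day 5 the lymphoma cells were separated with magnetic beads against CD4, CD8 and CD14. The methods give this step for cocultures alone, so that an effect of the bead handling cannot be told apart from that of the monocytes. The other 2 arrays came from DEV cells grown in the same way with CD3-positive T cells and served to estimate the spread and to show values side by side. The study asked how lymphoma cells respond to the kinds of blood cell that surround them in tissue. The labels number the arrays of a group but do not say whether these came from separate cultures or donors, so p-values measure the spread between these arrays only, and the small number of arrays limits the precision.

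Monocytes are circulating phagocytes. They express the lipopolysaccharide co-receptor CD14 and lysozyme (LYZ), and they release cytokines and take up debris through lysosomes. Germinal centre B cells, from which NLPHL arises, divide rapidly, and MYC, a transcription factor that binds the sequence CACGTG together with its partner MAX, drives the synthesis of ribosomes, nucleotides and proteins in dividing B cells. NF-kB is a family of transcription factors that mediates survival signals and cytokine expression in activated B cells.

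All values are the deposited log2 values of a probe set, and differences are monocyte coculture minus monoculture on that scale, followed by the standard error of the limma fit. Values of single arrays are given in the order replicate 1, replicate 2. A probe set was called when its adjusted p from limma, corrected over all probe sets, was under 0.05, and "rose" and "fell" are used only of called probe sets.

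The deposited values were first examined for transcripts of the monocytes themselves. LYZ stood at 8.42 in replicate 1 of the monocyte coculture and at 5.06 in replicate 2, against 5.02 and 4.98 in monoculture. CD14 gave 6.15 and 5.42 against 5.31 and 5.21, and FCER1G, the common signalling chain of Fc receptors, gave 6.24 and 5.05 against 4.93 and 4.91. Thus replicate 1 was above all other arrays for these genes, while replicate 2 lay at or near the monoculture level. By a criterion set after the values were seen, 8 probe sets with 1 gene symbol lay more than 1 log2 unit above all other arrays in replicate 1, against 1 in replicate 2 (SPRR2D, a cornified envelope protein) and 0 in either monoculture array. The T cell coculture arrays had 1 and 9 such probe sets, so that replicate 1 was not alone in this. These 8 were LYZ, FCER1G, the chemokines CXCL8 (8.92 in replicate 1, 5.81 in replicate 2) and CXCL5, the secreted ribonucleases RNASE1 and RNASE6, the cytokine IL1B (6.72 and 5.12) and the matrix protein THBS1. None of them was called.

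Of 43 monocyte and macrophage markers, 40 were measured, and 4 of these were more than 0.5 above all other arrays in replicate 1 and 0 in replicate 2. Their summed level on the linear scale was 2036 and 2302 in monoculture, 3008 in replicate 1 and 2561 in replicate 2. CD68, described below, had the highest value of them in both coculture arrays and weighs most in these 2 sums. The mean log2 level, which single bright genes sway less, was 5.46 and 5.50 in monoculture, 5.80 in replicate 1 and 5.55 in replicate 2. The defining markers differed among themselves. S100A8 (5.54 and 4.98 against 5.06 and 5.08) and the signalling adaptor TYROBP (6.50 and 6.14 against 6.14 and 6.10) were above all other arrays in replicate 1 alone, by less than LYZ. The scavenger receptor CD163 gave 5.11 and 5.20 against 5.12 and 5.19, and S100A9 gave 5.44 and 5.21 against 5.41 and 5.39, so that neither separated the groups. FCN1, MRC1 and C1QA, further markers of monocytes and macrophages, had differences of 0.076, 0.025 and -0.018. CD68, a lysosomal protein of macrophages, differed from this pattern, since it was higher in both arrays at 9.15 and 9.45 against 7.13 and 7.62 (difference 1.92 ± 0.29, limma adjusted p = 0.0539). By less, so were ITGAX (6.02 and 5.97 against 5.45 and 5.45) and CSF1R (5.84 and 5.85 against 5.29 and 5.59), both uncalled. Both arrays lay above both monoculture arrays for 17 of the 40 markers (42.5%, against 27.5% of all genes). A lower mean was seen for 9, among them MNDA (-0.69), TLR4 (-0.56) and VCAN (-0.19). In such bulk samples, fewer cells of a type and less RNA per cell cannot be told apart, and the part that remaining monocytes had in the differences below was not tested. Values of both arrays are therefore given for the main genes and lists.

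B cell transcripts were measured in every array. The B cell surface protein MS4A1 (CD20) stood at 9.22 and 9.22 in monoculture and at 9.84 and 9.62 with monocytes, and the B cell receptor chain CD79A at 8.96 and 9.10 against 9.27 and 8.73. The summed linear level of 20 T cell markers was 1163 and 1208 in monoculture and 1090 and 1060 with monocytes, and that of the 33 measured B cell identity genes was 11617 and 12404 against 12585 and 11002. Array medians ran from 5.64 to 5.73, and the correlation between arrays over probe sets from 0.967 to 0.99.

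**Figure D1:**
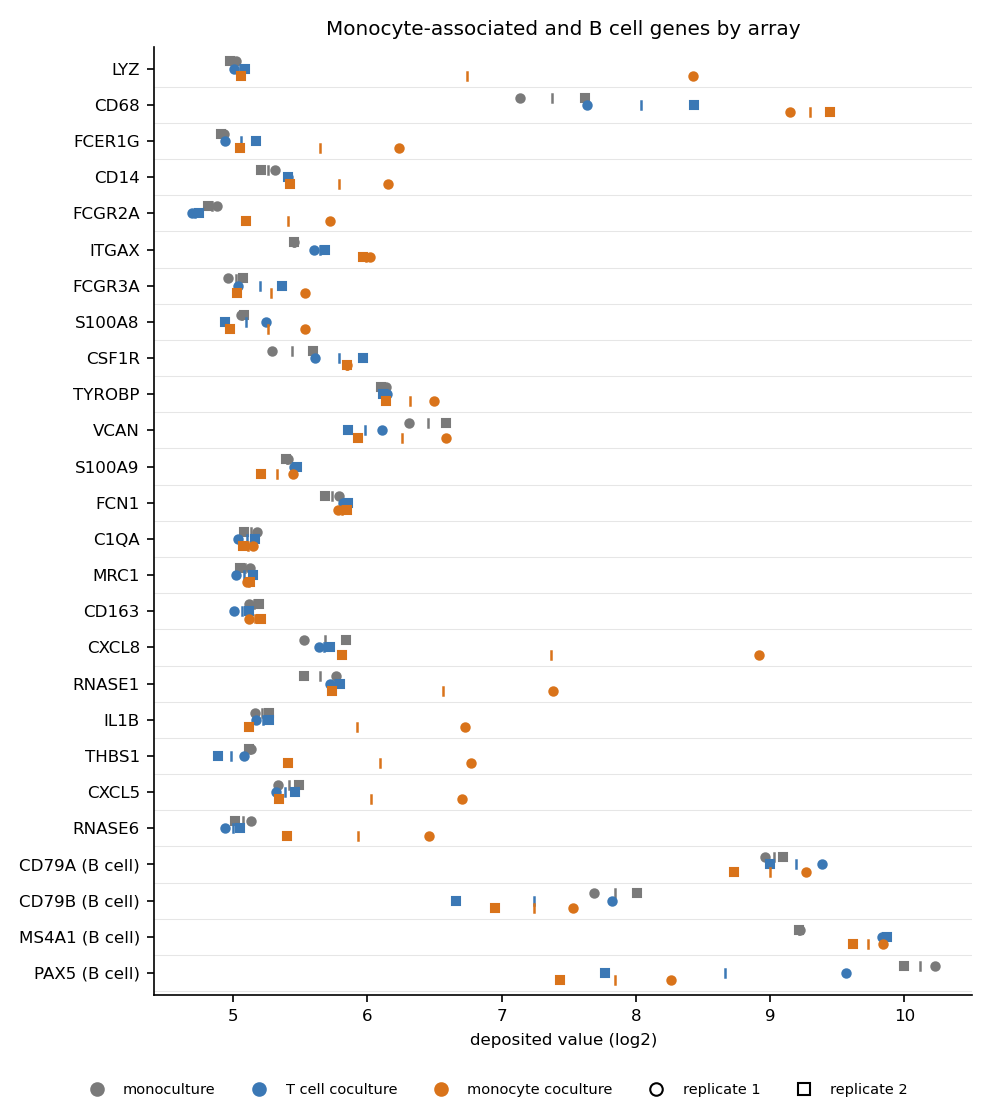
Deposited log2 value (x axis) of monocyte-associated genes and of 4 B cell genes in each array, with circles for replicate 1, squares for replicate 2 and a bar for the mean of a group. LYZ, CXCL8, RNASE1, IL1B, THBS1, CXCL5, RNASE6 and FCER1G are high in replicate 1 of the monocyte coculture alone, whereas CD68 is high in both arrays and CD163 and MRC1 are nearly level across arrays.

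Of the 32321 probe sets, 187 were called (0.579%), 74 higher and 113 lower. Among these, 143 carried 1 gene symbol (64 higher, 79 lower), 13 carried several and 31 none. In all 187 both monocyte coculture arrays lay outside the range of the monoculture pair. With 2 arrays a group a call nearly requires this, so that it is no separate evidence of agreement between arrays. Of the 187, 97 differed at least 2-fold (35 higher, 62 lower). Over all 18404 genes, 0.331% were called higher and 0.413% lower. A higher mean with monocytes was seen for 52.9% of genes. Both coculture arrays lay above both monoculture arrays for 27.5% of genes and below them for 27.1%. The differences of called probe sets ran from 0.621 to 2.64 in size. At an unadjusted p under 0.05 there were 5672, where chance gives 1616, and the smallest adjusted p was 0.0398. Just outside the threshold lay GFPT1, a hexosamine pathway enzyme (0.77), the adhesion molecule L1CAM (1.72), SAT2 (1.07) and the lysyl-tRNA synthetase KARS1 (-0.74), each with a limma adjusted p of 0.0505.

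Large differences were more numerous in replicate 2 than in replicate 1. Probe sets that exceeded the mean of the monoculture pair by over 1 log2 unit numbered 130 in replicate 1 and 336 in replicate 2, and those under it by as much numbered 219 and 406. Among called probe sets with 1 gene symbol the larger difference was that of replicate 2 for 39 of the 64 that rose and 47 of the 79 that fell. The number of calls depended on each array compared. Without monoculture replicate 1, monoculture replicate 2 or monocyte coculture replicate 1 limma called no probe set (4106, 3738 and 4949 had an unadjusted p under 0.05), and 1 was called without monocyte coculture replicate 2, where the lone array left in the group was assumed to vary like the other groups. The share of calls that were higher was 39.6% as deposited, 53.1% (68 of 128) after quantile normalization and 24.3% (107 of 440) after median centring.

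**Figure D2:**
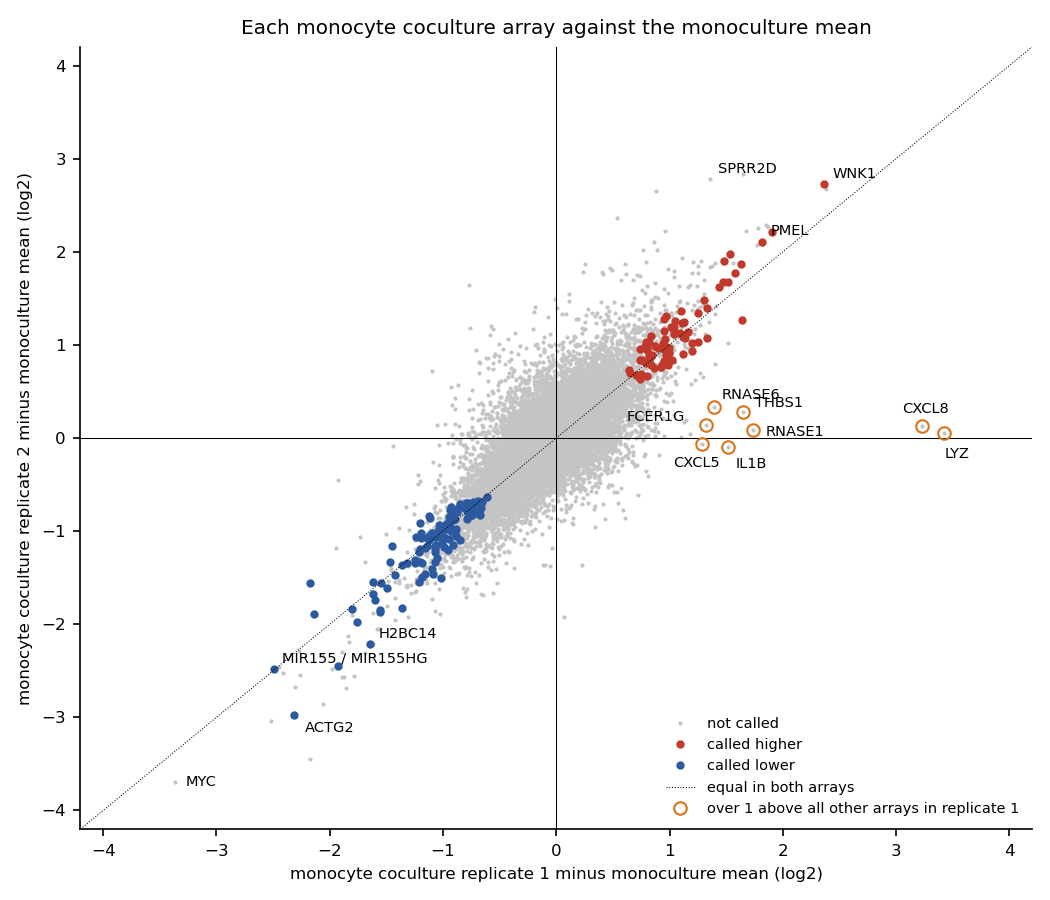
Difference of each probe set from the monoculture mean in replicate 1 (x axis, log2) and replicate 2 (y axis, log2) of the monocyte coculture, with called probe sets in red (higher) and blue (lower). Called probe sets lie along the line of equal difference, which the test itself favours, whereas the 8 circled genes lie near 0 in replicate 2.

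Among the genes with the largest rises were several of signalling and stress. LCP2, the adaptor protein SLP-76 of immune receptor signalling, was at 7.45 and 7.82 in monoculture and at 9.26 and 9.50 with monocytes, a rise of 1.75 ± 0.15 (3.36-fold, limma adjusted p = 0.0398). TEC, a tyrosine kinase that acts below the B cell receptor, went from 7.48 and 7.38 to 8.87 and 9.05 (1.53 ± 0.14, adjusted p = 0.0398). RGS1, which terminates signals of G protein-coupled chemokine receptors, went from 9.06 and 9.32 to 10.70 and 10.86 (1.60 ± 0.19, adjusted p = 0.0455). These were the only 3 of 24 measured B cell receptor and G protein signalling genes that rose, where 0.331% of all genes were called higher, and 0 fell. INPP5D, LYN and SYK of the same list had differences of -0.82, -0.49 and -0.28 and were not called.

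IL23A, the p19 subunit of interleukin 23, gave 6.30 and 6.48 in monoculture and 7.97 and 8.16 with monocytes (difference 1.68 ± 0.16, limma adjusted p = 0.0402), with both coculture arrays far above both monoculture arrays. DDIT3, the stress transcription factor CHOP, rose by 1.69 ± 0.22 from 6.61 and 7.10 to 8.34 and 8.75. PMEL, a protein of melanosome fibrils, rose by 1.96 ± 0.21 from 5.89 and 6.14 to 7.83 and 8.12. Replicate 2 was the higher array for each of these, by less than the distance to monoculture. TP53INP1, a p53 target that promotes autophagy, rose by 1.39 ± 0.15, the kinase gene NMRK2 of nicotinamide riboside by 1.57 ± 0.21, the insulin-like growth factor binding protein IGFBP4 by 1.45 ± 0.17, the receptor tyrosine phosphatase PTPRM by 1.30 ± 0.12, the potassium channel subunit KCNAB2 by 1.19 ± 0.10 and XKRX by 1.18 ± 0.14. IGFBP4 was the only one of these in which replicate 1 (8.62) was above replicate 2 (8.26).

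The largest rise of all belonged to a single probe set of WNK1, a kinase that regulates ion transport. It gave 6.63 and 6.40 in monoculture and 8.88 and 9.25 with monocytes (difference 2.55 ± 0.22, limma adjusted p = 0.0398). The other probe set of this gene was at 9.71 and 9.66 in monoculture and 9.85 and 9.88 with monocytes and was not called (0.18 ± 0.095, adjusted p = 0.407). The probe sets of this gene thus did not change alike. The paper named HSN2, counted under WNK1 here, among its most strongly upregulated genes. Which of these probe sets measures HSN2 was not tested. For ATXN7L1, 3 of 6 probe sets rose (by 1.23, 1.11 and 1.08).

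**Figure D3:**
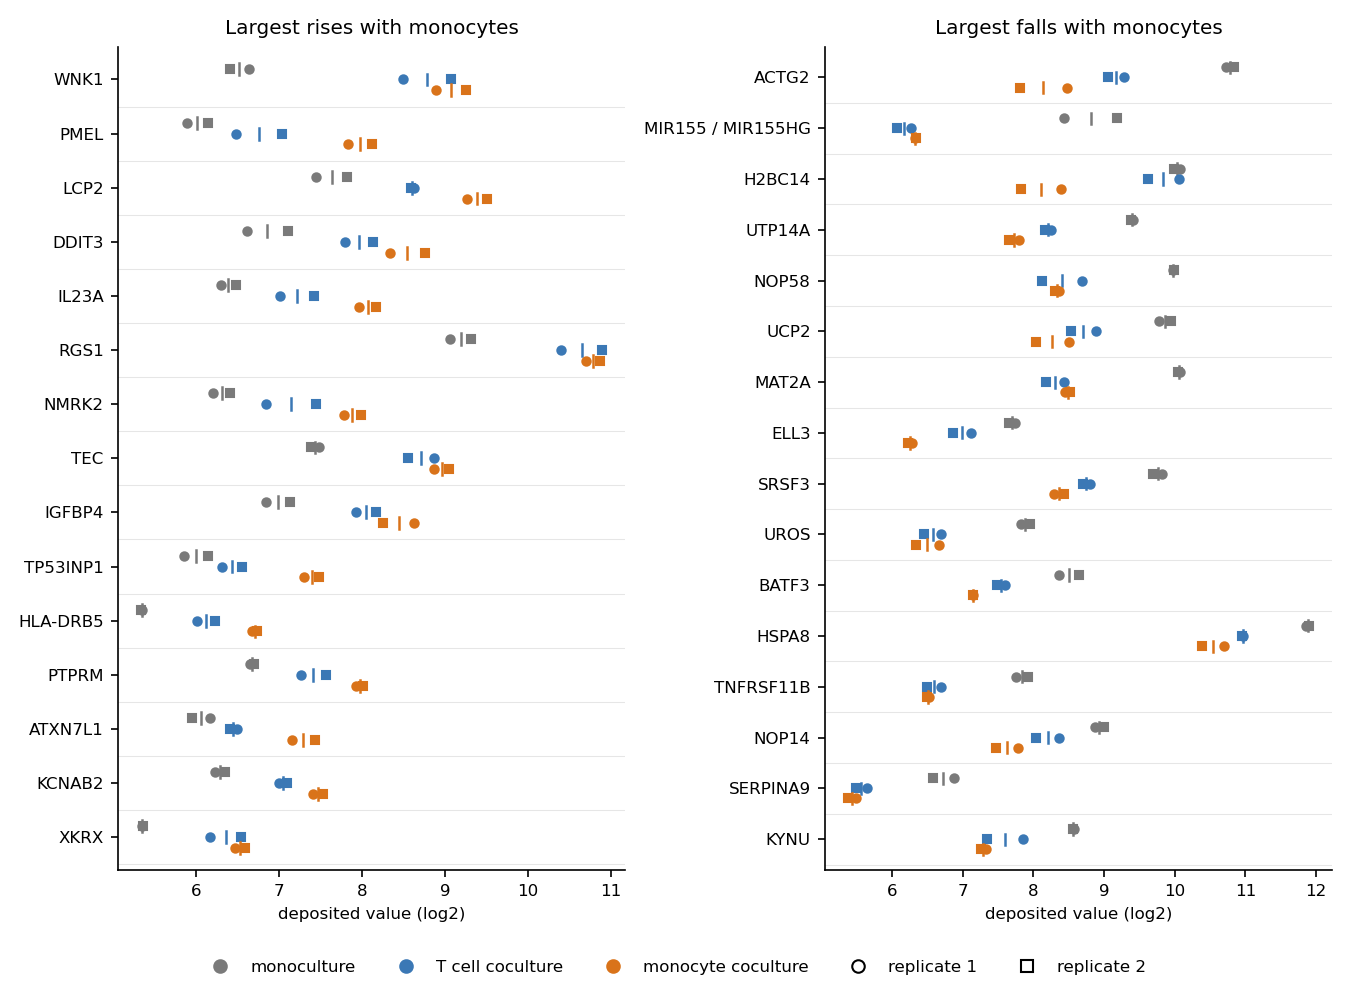
Deposited log2 value (x axis) in each array of the genes with the 15 largest rises (left) and of those with the 15 largest falls and the MIR155 probe set (right), with circles for replicate 1, squares for replicate 2 and bars for group means. The monocyte coculture arrays (orange) lie outside the monoculture pair (grey) in every row, as the choice of these genes required.

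The largest fall among called probe sets was that of ACTG2, the smooth muscle gamma actin, from 10.72 and 10.84 to 8.47 and 7.80 (-2.65 ± 0.22, 6.25-fold lower, limma adjusted p = 0.0398). Since actin genes are nearly identical in sequence, the assignment of this signal to ACTG2 is uncertain. Of 21 measured actin and actin-binding genes 19 had a lower mean with monocytes and 17 (81%) had both arrays below both monoculture arrays, where 27.1% of all genes did. ACTG2 was the only one of them that fell, where 0.413% of all genes were called lower, and the beta actin ACTB differed by -0.91 ± 0.15 (adjusted p = 0.0569). Outside that list, the actin-binding protein COTL1 fell by 1.25 ± 0.15, from 9.55 and 9.50 to 8.43 and 8.12. The median over the actin list was -0.41 (-0.40 in replicate 1 and -0.51 in replicate 2), against 0.01 over all 18404 genes.

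The host transcripts of some microRNAs fell. MIR155 is a microRNA of activated B cells that is cut from the transcript MIR155HG, and both share a probe set. It stood at 8.44 and 9.19 in monoculture and at 6.32 and 6.33 with monocytes, a difference of -2.49 ± 0.24 (limma adjusted p = 0.0402). The coculture arrays were nearly equal and far below both monoculture arrays. MIR17HG, the host transcript of a cluster of 6 microRNAs, went from 6.66 and 6.55 to 5.70 and 5.74 (-0.89 ± 0.12, adjusted p = 0.0473). It was the only one of 179 measured microRNA genes with 1 symbol that was called, where 0.413% of all genes were called lower. Of the 179, 114 had a higher mean, and their median was 0.028. The array measures these transcripts and not the mature microRNAs. Mature sequences of both transcripts are shown because the seed (bases 2 to 8, in capitals) sets which messengers a microRNA pairs with. Only 1 sequence of each microRNA gene is shown. The sequences of the other arm, such as miR-155-3p and miR-17-3p, have other seeds and are left out. All sequences were taken from RefSeq (GRCh38.p14) for the 7 microRNA genes, and miR-155-5p lies at chr21:25573983-25574006 on the plus strand.

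hsa-miR-155-5p: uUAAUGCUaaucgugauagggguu
hsa-miR-17-5p: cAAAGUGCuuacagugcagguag
hsa-miR-20a-5p: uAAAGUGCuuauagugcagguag
hsa-miR-18a-5p: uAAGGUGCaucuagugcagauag
hsa-miR-19a-3p: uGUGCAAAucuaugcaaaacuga
hsa-miR-19b-3p: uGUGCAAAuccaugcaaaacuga
hsa-miR-92a-3p: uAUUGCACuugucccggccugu

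In the MIR17HG cluster, which runs on the plus strand from chr13:91350618-91350640 (miR-17-5p) to chr13:91351361-91351382 (miR-92a-3p), miR-17-5p and miR-20a-5p share a seed, as do miR-19a-3p and miR-19b-3p, while miR-18a-5p and miR-92a-3p each have a seed of their own. The seed of miR-155-5p is shared with none of them.

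MYC had the lowest difference of all probe sets. It stood at 10.03 and 10.12 in monoculture and at 6.71 and 6.38 with monocytes, a difference of -3.53 ± 0.56. Although both coculture arrays were more than 3 log2 units below both monoculture arrays, MYC was not called (limma adjusted p = 0.0551). Its T cell coculture arrays, which enter the shared estimate of spread, lay far apart at 8.42 and 6.54. In a fit of the 2 groups alone, which called 1167 probe sets in place of 187, MYC was called (limma adjusted p = 0.0145). Its partner MAX differed by -0.50 ± 0.092 (adjusted p = 0.0698) and its antagonist MXI1 by 0.59 ± 0.12 (adjusted p = 0.0873).

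The target genes of MYC were lower as a group. Of 59 measured, 53 had a lower mean with monocytes, 48 (81.4%) had both arrays below both monoculture arrays and 3 fell. Over all genes, 27.1% had both arrays below in this way and 0.413% were called lower. The median was -0.60 (-0.59 in replicate 1, -0.65 in replicate 2). ODC1, the first enzyme of polyamine synthesis, fell by 1.07 ± 0.093 from 11.55 and 11.48 to 10.45 and 10.45. PA2G4, a nucleolar growth regulator, fell by 1.26 ± 0.13, and nucleolin (NCL), an abundant protein of the nucleolus, fell by 0.73 ± 0.091 from 11.71 and 11.74 to 10.99 and 10.99. The helicase RUVBL1 had the lowest difference of the list (-2.23 ± 0.38) but was not called (adjusted p = 0.0608). Its arrays were 8.96 and 9.06 against 7.04 and 6.54.

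Among 63 ribosome biogenesis factors, 61 (96.8%) had both monocyte arrays below both monoculture arrays, where 27.1% of all genes did. The remaining NOP10 and NSA2 had differences of 0.089 and 0.10. UTP14A of the small subunit processome went from 9.40 and 9.38 to 7.80 and 7.66, a difference of -1.67 ± 0.095 (limma adjusted p = 0.0398). NOP58, a core protein of box C/D ribonucleoproteins, went from 9.97 and 9.99 to 8.36 and 8.30 (-1.65 ± 0.18, adjusted p = 0.0455). Both genes were tightly grouped within each pair of arrays. The assembly factors GNL2, RRS1 and NOL10 (the last not taken by the naming rule) fell (differences -1.02, -1.06 and -1.03). This made 5 of 63 called lower, where 0.413% of all genes were. NOP14, a further processome protein that was not on the list, fell by 1.31 ± 0.16. The median of the list was -0.62, with -0.62 and -0.69 in the single arrays.

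Other groups of the growth machinery had smaller shifts. Of 73 mitochondrial ribosomal proteins 71 were lower, with a median of -0.37. In 58 (79.5%) both arrays were below both monoculture arrays, against 27.1% of all genes. MRPS27 (-0.95) and MRPL1 (-0.99) were the 2 that fell, where 0.413% of all genes were called lower. The 67 cytosolic ribosomal proteins did not share this direction, with 0 called and a median of 0.11. A higher mean was seen for 50 of them, against 52.9% of all genes. In nucleotide synthesis, 27 of 29 enzymes had a lower mean, and 22 (75.9%) had both arrays below both monoculture arrays. The purine enzymes ADSL and PAICS fell (differences -0.98 ± 0.085 and -0.85 ± 0.11). CTPS1, which makes CTP, differed by -1.30 (adjusted p = 0.053). Subunits of RNA polymerases I and III had a median of -0.21 with 0 of 31 called, and aminoacyl-tRNA synthetases one of -0.33 with 0 of 19 called. Besides ODC1, MAT2A, which makes the methyl donor S-adenosylmethionine, fell by 1.58 ± 0.11, from 10.08 and 10.05 to 8.45 and 8.52. SAT2, listed with the polyamine enzymes, was higher without passing the threshold (1.07, adjusted p = 0.0505).

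Protein chaperones held the largest number of called genes of any list, 6 of 29, all lower, where 0.413% of all genes were called lower. HSPA8, the constitutive HSP70, went from 11.86 and 11.90 to 10.70 and 10.39 (-1.34 ± 0.12, limma adjusted p = 0.0402). Its co-chaperone DNAJA1 fell by 1.01 ± 0.12, HSP90AA1 fell by 0.70 ± 0.087 and the chaperonin subunit CCT2 fell by 0.88 ± 0.11. HSPH1 and a further chaperonin subunit, TCP1, completed the group with differences of -0.83 and -0.62. 25 of the 29 (86.2%) had both arrays below both monoculture arrays, against 27.1% of all genes, and HSPB1 was the highest of the others (0.58, not called). The 21 ER chaperone and unfolded protein genes had a median of 0.0062 and 0 called. Probe sets with several symbols were left out of all list counts. Among these, the probe sets shared by PDIA3 and PDIA3P1 fell (-0.93 and -1.03, each with an adjusted p of 0.0402).

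The promoters of called genes were searched for CACGTG, the sequence that MYC and MAX bind, which reads the same on both strands. The windows ran from 250 bases before to 50 after the start of a gene (RefSeq, GRCh38.p14). Of the 79 genes with a called lower probe set 62 had a window, and 7 of these (11.3%) held the motif, against 8.88% of the windows of all measured genes and 7.43% of all windows. Among genes that rose it was 3 of 50 (6%). For the whole list of MYC targets it was 18 of 51 (35.3%), for ribosome biogenesis factors 19 of 53 (35.8%) and for lysosome genes 8 of 29 (27.6%). The share among called genes was thus near that of all genes. A match describes the letters of a window and not the binding of a factor. The windows of UTP14A (chrX:129905914-129906213, plus strand), which had the largest fall of the 7, and of EIF4G1 (chr3:184314356-184314655, plus strand), the only one with 2 matches, are shown with the motif in capitals.

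UTP14A: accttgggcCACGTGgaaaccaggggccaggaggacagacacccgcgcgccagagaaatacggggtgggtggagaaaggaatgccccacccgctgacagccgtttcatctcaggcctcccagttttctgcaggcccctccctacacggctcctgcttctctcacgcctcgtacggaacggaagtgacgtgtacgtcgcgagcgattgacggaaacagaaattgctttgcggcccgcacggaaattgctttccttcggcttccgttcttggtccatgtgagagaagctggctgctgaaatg
EIF4G1: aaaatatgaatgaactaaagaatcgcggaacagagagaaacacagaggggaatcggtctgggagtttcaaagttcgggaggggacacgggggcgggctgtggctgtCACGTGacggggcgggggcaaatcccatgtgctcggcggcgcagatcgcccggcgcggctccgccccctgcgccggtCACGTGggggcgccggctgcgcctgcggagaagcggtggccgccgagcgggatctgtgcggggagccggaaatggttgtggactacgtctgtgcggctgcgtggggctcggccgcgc

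EIF4G1, the scaffold of the translation initiation complex, fell by 1.08 ± 0.14 (limma adjusted p = 0.0471), from 8.19 and 8.03 to 7.12 and 6.94. Its matches began 144 and 67 bases before the gene's start, and that of UTP14A 241 bases before it.

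**Figure D4:**
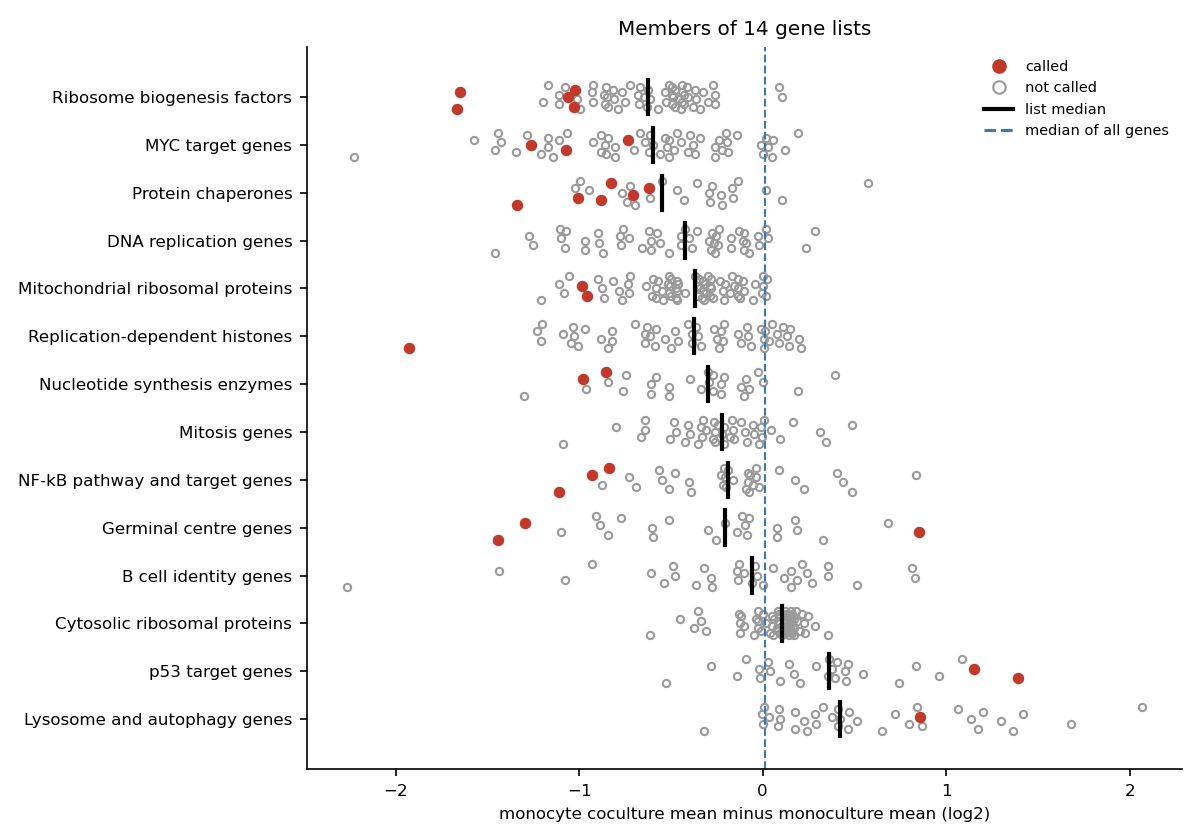
Difference of each measured member (points; monocyte coculture mean minus monoculture mean, log2) for 14 gene lists, with called members filled in red, list medians as black bars and the median of all genes as a dashed line. Ribosome biogenesis factors, MYC targets and chaperones lie mostly below 0, lysosome genes mostly above it, and cytosolic ribosomal proteins close to 0.

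For the cell cycle, DNA replication genes were lower in both arrays without a single call. Of 51 measured, 47 had a lower mean and 36 (70.6%) had both arrays below both monoculture arrays, where 27.1% of all genes did. The median was -0.26 in replicate 1 and -0.62 in replicate 2. TIPIN of the replication fork gave 8.51 and 8.46 against 7.16 and 6.90 (-1.46 ± 0.22, limma adjusted p = 0.053), and the polymerase subunit POLA1 gave -1.27 ± 0.22 (adjusted p = 0.0611). Mitosis genes differed less, with 36 of 43 lower, a median of -0.22 (-0.12 in replicate 1 and -0.29 in replicate 2) and 0 called. In 20 of them (46.5%) both arrays were below both monoculture arrays. Of 27 G1 regulators none was called either. The CDK inhibitor CDKN1A (p21) was higher by 1.09 ± 0.18 (adjusted p = 0.0569), CDK2 by 1.36 ± 0.28 (adjusted p = 0.0871), and the cyclin CCND3 differed by -1.28 ± 0.27 (adjusted p = 0.0906). Histone genes that are transcribed in S phase had a median of -0.37, 43 of 56 being lower and 34 (60.7%) having both arrays below both monoculture arrays. Only H2BC14 among them fell, where 0.413% of all genes were called lower. It went from 10.08 and 9.99 to 8.39 and 7.82 (-1.93 ± 0.22, adjusted p = 0.0455), although near-identical histone genes make the assignment uncertain.

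Target genes of p53, which arrests the cell cycle upon stress, were mostly higher, 22 of 28, and 19 (67.9%) had both monocyte arrays above both monoculture arrays, where 27.5% of all genes did. Besides TP53INP1, SESN1, an inhibitor of growth signalling, rose by 1.15 ± 0.15 from 6.64 and 6.68 to 7.71 and 7.92. The death receptor TNFRSF10B differed by 0.84 ± 0.13 (limma adjusted p = 0.0546), and the median was 0.36. Of 25 FOXO and quiescence genes SESN1 and PIK3IP1, an inhibitor of PI3 kinase (1.10 ± 0.12), rose and 0 fell. The shares over all genes were 0.331% called higher and 0.413% called lower. In the BCL2 family the anti-apoptotic BCL2A1 fell by 1.11 ± 0.14 from 10.01 and 10.12 to 8.94 and 8.97. BCL2 itself was higher by 0.96 ± 0.15 (adjusted p = 0.053) and the pro-apoptotic BMF differed by -1.16 ± 0.20 (adjusted p = 0.0646), both short of the threshold.

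Lysosome and autophagy genes were higher with monocytes in 35 of 37 cases. In 29 (78.4%) both arrays were above both monoculture arrays, against 27.5% of all genes. The median was 0.42, with 0.49 in replicate 1 and 0.45 in replicate 2. The protease legumain (LGMN) was the only one called, where 0.331% of all genes were called higher. It gave 6.87 and 6.68 in monoculture and 7.70 and 7.56 with monocytes (0.86 ± 0.11, limma adjusted p = 0.0471). Larger differences did not pass the threshold. NPC2, which exports cholesterol from lysosomes, gave 8.08 and 8.42 against 10.12 and 10.51 (2.07 ± 0.32, adjusted p = 0.0551). The saposin precursor PSAP differed by 1.36 ± 0.20 and the ganglioside activator GM2A by 1.42 ± 0.20. Monocytes also express such genes, and the part of monocytes left in replicate 1 was not tested. LGMN was higher in replicate 1, and NPC2 in replicate 2. Several further lysosomal proteins, chosen after their values were seen, rose outside the list, namely the hydrolases MANBA (0.81), FUCA1 (0.73) and SCPEP1 (1.10), the sialic acid exporter SLC17A5 (0.88) and the proton pump subunit ATP6V0A1 (0.93). Likewise chosen afterwards, the lysosomal enzyme HGSNAT fell (-0.75), and the lysosomal transporter MFSD1 was at -1.37 without a call (adjusted p = 0.0505).

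Metabolic lists had few calls, beside 0.331% of all genes called higher and 0.413% called lower. Of 21 glycolysis genes 0 were called, with LDHA at -1.44 ± 0.23 (limma adjusted p = 0.0551) and a median of -0.24. Respiratory chain genes had a median of -0.15 and cholesterol synthesis genes one of -0.16, with 0 of 30 and 0 of 21 called. MYLIP, a ligase that degrades the LDL receptor, rose by 0.98 ± 0.12 and was the only call among 10 sterol efflux genes. Outside these lists the mitochondrial carrier UCP2 fell by 1.59 ± 0.19, from 9.78 and 9.95 to 8.51 and 8.03, the haem synthesis enzyme UROS fell by 1.38 ± 0.15 and the tryptophan catabolic enzyme KYNU fell by 1.28 ± 0.17. FABP3, a fatty acid carrier, had the second largest upward difference of all genes (2.53 ± 0.41) but was not called (adjusted p = 0.0577), with 5.64 and 5.87 in monoculture and 8.14 and 8.43 in coculture. Of the ATF4 and amino acid stress genes, only DDIT3 rose among 28, and the pseudokinase TRIB3 differed by 0.93 ± 0.15 (adjusted p = 0.0546).

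Genes of NF-kB signalling fell in 3 of 35 cases, where 0.413% of all genes were called lower. NFKB1, the p105/p50 subunit, went from 9.37 and 9.24 to 8.42 and 8.51, a difference of -0.84 ± 0.10 (limma adjusted p = 0.0455). TRAF1, a signalling adaptor and NF-kB target, fell by 0.93 ± 0.11, and BCL2A1 is the third. The list as a whole had 28 lower members and a median of -0.19 (-0.11 and -0.27). In 17 (48.6%) both arrays were below both monoculture arrays, against 27.1% of all genes. STAT5A went the other way without a call (0.83 ± 0.12, adjusted p = 0.053). BATF3, an AP-1 family factor, fell by 1.37 ± 0.12 from 8.37 and 8.65 to 7.14 and 7.14. TNFRSF11B, the decoy receptor osteoprotegerin, fell by 1.33 ± 0.11.

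Among the cytokines and chemokines (46 measured) IL23A rose, while CXCL13, the chemokine that attracts B cells to follicles, fell from 6.44 and 6.77 to 5.53 and 5.27 (-1.20 ± 0.15, limma adjusted p = 0.0455). TNF differed by -0.87 ± 0.16 (adjusted p = 0.0684). IL2RB, the beta chain of the interleukin 2 receptor, rose by 1.14 ± 0.14, from 5.69 and 5.72 to 6.96 and 6.73. It was the only call among 35 JAK-STAT and cytokine receptor genes. Beside both lists, 0.331% of all genes were called higher and 0.413% lower. Interferon response genes were split evenly, 22 of 46 being higher and 0 called, with SAMD9L at -1.44 ± 0.21 and IFITM1 at 0.99 ± 0.16. A probe set shared by GBP1, GBP3 and GBP1P1, not counted because it has several symbols, fell (-0.81, adjusted p = 0.0481).

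For antigen presentation, HLA-DRB5 of MHC class II rose by 1.36 ± 0.11 (limma adjusted p = 0.0398) from 5.35 and 5.34 to 6.68 and 6.74, with no overlap and little spread. HLA-DQB1 gave 5.69 and 5.58 against 6.84 and 7.52 (1.55 ± 0.52, adjusted p = 0.197). HLA-DQA1 and HLA-DPA1 differed by 0.95 ± 0.19 and 0.90 ± 0.21, whereas the transactivator CIITA differed by 0.15. HLA probe sets can take up signal of near-identical genes and alleles. The MHC class I and peptide processing genes had a median of -0.38 with 11 of 14 lower and 0 called. Both arrays lay below both monoculture arrays for 8 (57.1%), against 27.1% of all genes. Among 25 checkpoint and costimulatory ligands 19 were higher and 0 called. In 13 (52%) both arrays were above both monoculture arrays, against 27.5% of all genes. TNFRSF14 was at 1.18 ± 0.18 (adjusted p = 0.053), CD274 (PD-L1) at 1.07 ± 0.19 (adjusted p = 0.0683) and CD86 at -0.97 ± 0.19 (adjusted p = 0.0768).

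B cell identity genes showed no common direction. Of 33, 14 had a higher mean and 0 were called. PAX5, the transcription factor that maintains B cell identity, had the lowest difference, from 10.23 and 10.00 to 8.26 and 7.43 (-2.27 ± 0.58, limma adjusted p = 0.12). Its T cell coculture arrays, which enter the estimate of spread, lay far apart at 9.57 and 7.77. CD22 and CD52 were at 0.83 ± 0.15 and 0.82 ± 0.12. Among 25 germinal centre genes the elongation factor ELL3 fell by 1.44 ± 0.12 (7.74 and 7.66 against 6.28 and 6.23) and the serpin SERPINA9 fell by 1.29 ± 0.13 (6.87 and 6.58 against 5.48 and 5.38). KLHL6, an adaptor of B cell receptor signalling, rose by 0.85 ± 0.090, where 0.331% of all genes were called higher and 0.413% lower. 13 of the 25 (52%) had both arrays below both monoculture arrays, against 27.1% of all genes. None of 15 plasma cell genes was called, PRDM1 being at 0.77 ± 0.14. CD3D stood at 8.26 and 8.33 in monoculture, without any T cells, and fell to 7.55 and 7.47 (-0.79 ± 0.090, adjusted p = 0.0455).

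A few further genes of named lists were called. ID3, an inhibitor of E proteins, rose by 1.15 ± 0.11 from 5.47 and 5.67 to 6.74 and 6.71. The purine-gated channel P2RX4 rose by 0.69 ± 0.084, and the purine receptor P2RY12 fell by 0.79 ± 0.090. P2RX7 (1.21 ± 0.17, limma adjusted p = 0.0523), P2RY14 (-2.23 ± 0.40, adjusted p = 0.0679) and the SLAM family receptor LY9 (1.95 ± 0.27, adjusted p = 0.051) differed by more but did not pass. LY9 gave 6.30 and 6.82 in monoculture and 8.23 and 8.78 in coculture, the monoculture arrays being unequal as well.

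Several falls concerned proteins that process RNA. SRSF3, a splicing factor, went from 9.82 and 9.70 to 8.29 and 8.43 (-1.40 ± 0.10, limma adjusted p = 0.0398). Further such genes, chosen after their values were seen, were the splicing factors SRSF6 (-1.06), TRA2A (-0.74) and TRA2B (-0.97), the spliceosomal protein SNRPD1 (-1.27), the helicases DDX46 (-1.07) and DDX39A (-0.97) and the RNA-binding proteins SYNCRIP (-1.15) and HNRNPDL (-0.78), all of them called. No list of splicing genes was compiled, so that their share among such genes was not tested.

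Of the genes that the study itself had named for both cocultures, all 11 measured of the higher group and all 18 of the lower group differed in that direction with monocytes, with medians of 1.15 and -1.22. These genes were chosen on the same arrays and are not independent evidence of their direction. The called ones were ID3, IL2RB and IL23A (3 of 11) and MAT2A, HSPA8 and EIF4G1 (3 of 18). Of all genes, 0.331% were called higher and 0.413% lower. WNK1 stood for the HSN2 that the study named and was counted here by its uncalled probe set. The MIR155 probe set, which has several symbols, was not counted. A probe set of WNK1 and that of MIR155 were nevertheless called as given above.

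The remaining lists had no calls. These were 13 MYC, MAX and MXD factors, 24 oxidative stress and iron genes, 26 early response and AP-1 genes, 18 SLAM and Fc receptor-like genes, 192 small nucleolar RNAs and 439 zinc finger proteins, of which 270 were lower with a median of -0.045. NK cell (16), platelet (10) and erythroid (7) markers had no calls either, with medians between 0.056 and 0.098.

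The values of the T cell coculture, which shares its monoculture arrays with the comparison above, are given beside those of the monocyte coculture for the genes in which they differed most. No probe set was called for the difference between both cocultures (0% of 32321 by limma, smallest adjusted p 0.444, with 2422 under an unadjusted p of 0.05), so that no gene can be called particular to monocytes. Among called probe sets with 1 symbol, H2BC14 had the lowest difference, with 10.06 and 9.62 beside T cells and 8.39 and 7.82 beside monocytes (-1.73 ± 0.22). COTL1 gave 9.53 and 9.22 beside T cells and 8.43 and 8.12 beside monocytes (-1.10 ± 0.15). Both were near the monoculture level beside T cells. ACTG2 (-1.04), the glyoxylate reductase GRHPR (-0.84) and the cell cycle ubiquitin ligase subunit ANAPC15 (-0.82) followed in that order. On the other side, among the same probe sets, PMEL gave 6.48 and 7.03 beside T cells and 7.83 and 8.12 beside monocytes (1.22 ± 0.21), followed by TP53INP1 (0.96), IL23A (0.85), ATXN7L1 (0.84) and LCP2 (0.78). The smallest limma adjusted p among these 10 genes was 0.444. The probe set of MIR155 (6.27 and 6.07 beside T cells) and MIR17HG (5.72 and 5.46) stood at much the same level in both cocultures. The list medians relative to monoculture were -0.48 beside T cells and -0.60 beside monocytes for MYC targets, -0.59 and -0.62 for ribosome biogenesis factors, and 0.31 and 0.42 for lysosome genes. CD68, which was uncalled, gave 7.64 and 8.44 beside T cells, below 9.15 and 9.45 beside monocytes.

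**Figure D5:**
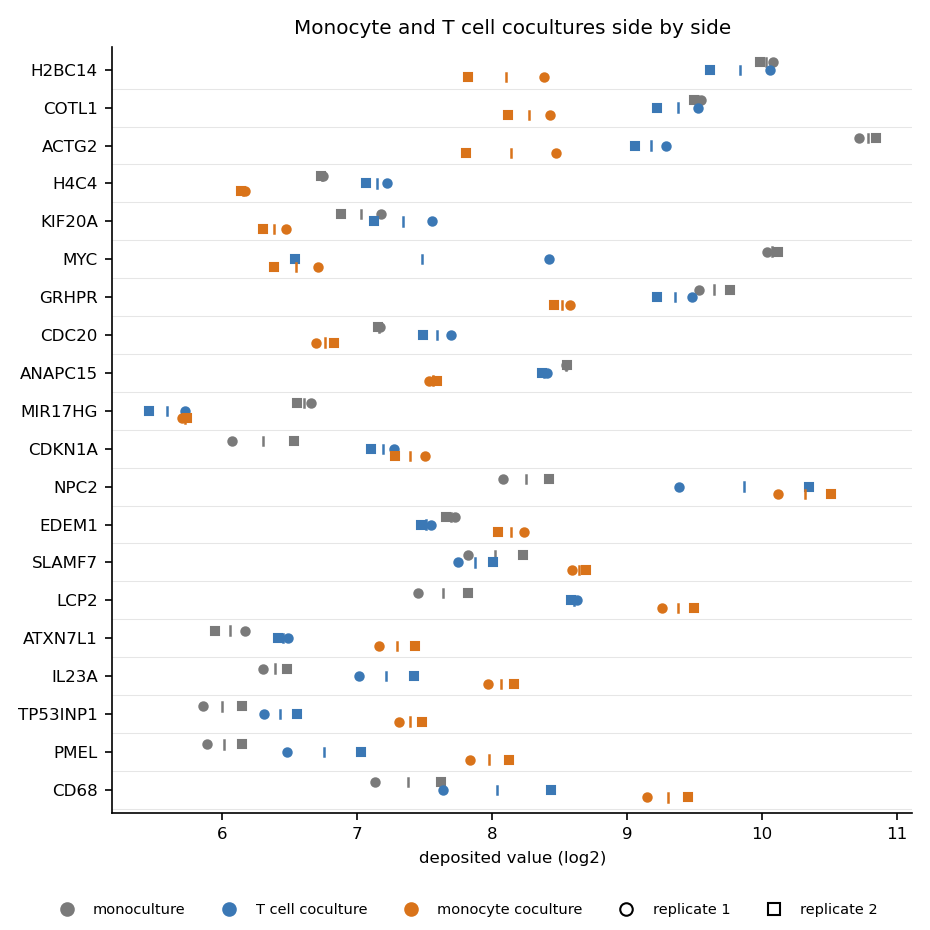
Deposited log2 value (x axis) in each array of the genes with the largest differences between cocultures and of further genes named in the text, ordered from lower to higher in monocyte than in T cell coculture, with circles for replicate 1, squares for replicate 2 and bars for group means. H2BC14 and COTL1 lie near monoculture beside T cells and below it beside monocytes, and the T cell arrays of MYC lie far apart.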

How the data were processed

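RNA of DEV cells (40 ng a sample) was amplified with the Ovation Pico WTA System V2, labelled with biotin and hybridised to Affymetrix Gene 1.0 arrays, 1 array for each of 6 samples. The deposited values are log2 values of probe sets that the authors had already summarised and normalized. The method is not given in the sources used here, nor is a depth defined for arrays. No value was missing, and no further filter or scaling was applied. Groups came from the sample labels.

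The 3 groups of 2 arrays were fitted together with limma 3.58.1 (lmFit and eBayes, R 4.3.3) without covariates, and p-values were adjusted over all 32321 probe sets by the Benjamini-Hochberg method. The procedure was tested on simulated data. The platform annotation gave 1 symbol for 19158 probe sets, several for 1388 and none for 11775, and 19128 of the first were matched to RefSeq by Entrez identifier. A gene with several probe sets was represented in list counts by the one with the highest mean, and probe sets with several symbols were left out of these counts. Named genes were those with the 15 largest rises and falls called, up to 4 members of each of 44 gene lists and 6 gene classes with the smallest p, genes named by the study, the MIR155 probe set and the 5 largest differences each way from the T cell coculture. Further genes were added outside this rule, such as list extremes, other called members, members that went the other way and cell markers. Only some of these are marked in the text as chosen after their values were seen. The lists, members and tests were chosen with earlier results of these data known. Alternatives were quantile normalization, median centring, omission of the dimmest 40% of probe sets, a fit of the compared groups alone, a replicate block, a variance trend and the omission of each array.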

Additional observations from a re-analysis of the deposited data

Results flagged for a closer look

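For some genes both arrays of the monocyte coculture lay on one side of the monoculture mean and both arrays of the T cell coculture on the other. This does not mean that each array lay outside the monoculture pair. Mitosis genes had a median difference of -0.38 between monocyte and T cell coculture, being at -0.22 with monocytes (-0.12 in replicate 1 and -0.29 in replicate 2) and 0.17 with T cells relative to monoculture, and the difference of the medians was not tested. With T cells the median was 0.37 in replicate 1 and 0.0017 in replicate 2, so that the T cell arrays themselves differed. Of the 43 genes, 28 had both monocyte arrays below both T cell arrays, where 17.9% of all genes did.

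KIF20A, a kinesin of late mitosis, gave 6.47 and 6.30 with monocytes and 7.55 and 7.12 with T cells (difference -0.95 ± 0.18). Its monoculture arrays were at 7.18 and 6.88, so that T cell replicate 2 lay between them. CDC20, which activates the anaphase-promoting complex, gave 6.69 and 6.83 with monocytes against 7.70 and 7.49 with T cells (-0.83 ± 0.11). The histone gene H4C4 gave 6.17 and 6.14 against 7.22 and 7.07 (-0.99 ± 0.094). EDEM1, which directs misfolded glycoproteins to degradation, gave 8.24 and 8.04 against 7.55 and 7.48 (0.63 ± 0.10), and the SLAM family receptor SLAMF7 gave 8.59 and 8.70 against 7.75 and 8.0 (0.77 ± 0.16). The Fc receptor FCGR2A gave 5.72 and 5.10 against 4.69 and 4.75 (0.69 ± 0.20), the higher value being that of the array with monocyte transcripts. The haemoglobin chain HBB differed by 0.26 ± 0.12. Its monocyte replicate 1 (5.28) and T cell replicate 2 (5.17) lay between the monoculture arrays (5.32 and 5.10). None of these genes passed the test of that difference after correction over all probe sets, the limma adjusted p being 0.706 for HBB, 0.533 for FCGR2A and 0.444 for the others.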

How the results depend on the processing

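Of 187 called probe sets (74 higher, 113 lower), 110 were also among the 128 called after quantile normalization (68 higher, 60 lower). All 187 were among the 440 called after median centring (107 higher, 333 lower) and among the 1167 (326 higher, 841 lower) called when the compared groups were fitted alone or without either T cell array. Without the dimmest 40% of probe sets 572 were called (197 higher, 375 lower), with a variance trend 0 (5460 at an unadjusted p under 0.05, smallest limma adjusted p 0.0556). Leaving out single arrays gave between 0 and 1167 calls (0 to 326 higher, 0 to 841 lower). The calls were lost without either monoculture array (0) or either monocyte coculture array (0 without replicate 1, and 1, not among the 187, without replicate 2). The test between cocultures gave 0 calls under every alternative except 1 higher without monocyte coculture replicate 2 (range 0 to 1). Monoculture arrays did not deviate together with the coculture arrays of the same number (r = 0.0268 for T cells and -0.152 for monocytes). Between both cocultures r was 0.26, so that a structure shared by their arrays of the same number is possible and was not tested further. The labels do not say that a number marks a shared day or donor, and it was not taken to pair arrays in the main fit. A replicate block gave 222 calls (99 higher, 123 lower), 115 of them shared. With the monoculture numbers crossed, an alternative added after the data were seen, the block gave 690 (237 higher, 453 lower), all 187 among them. Of the 220 named probe sets 2 changed sign, both uncalled. Without single arrays PPBP ranged from -0.0564 (monocyte coculture replicate 1 left out) to 0.4557, and HBD from -0.0126 (replicate 2 of that group left out) to 0.3162. The median of 12 of the 50 lists and classes changed sign under at least 1 alternative, all of them at most 0.0813 in size. The cause of these changes was not tested. Signal over background is not recorded in the values, so that dim probe sets could not be marked.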
